A study of Chlamydomonas reinhardtii with 9 samples.

Results

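The nuclear genes for subunits of the photosystems, the cytochrome b6f complex and the chloroplast ATP synthase were examined in 3 strains of the green alga Chlamydomonas reinhardtii. The genes were chosen by symbol, namely PSA, PSB or PET followed by a letter and ATPC, ATPD or ATPG, with PSBS and PETF left out. This gave 25 genes of 17609 gene models, of which 10 belong to photosystem I, 8 to photosystem II, 4 to cytochrome b6f and 3 to the ATP synthase. The rule itself uses no measured value, though it was written with earlier results of these data known. Only gene models that carry a symbol could be found this way, and 4326 do, so subunits listed without a symbol were not included. Since a letter had to follow PSB, the genes PSB27, PSB28, PSB33 and PSB34 were left out as well. The reaction centre proteins and several other central subunits of the same complexes are encoded in the chloroplast and were not analysed here, so the set holds the nuclear subunits around the cores.

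All 4 complexes sit in the thylakoid membrane of the chloroplast. Photosystem II takes electrons from water, the cytochrome b6f complex passes them to plastocyanin or cytochrome c6 and moves protons into the thylakoid lumen, photosystem I hands them to ferredoxin, and the ATP synthase uses the proton gradient to make ATP. Each complex is assembled from subunits of both genomes, and in Chlamydomonas nuclear factors control the RNA stability and translation of many of the chloroplast-encoded partners. In this alga cytochrome c6 can take the place of plastocyanin when copper is short.

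The mutant was strain B6-F (CC-4509), which carries the cehc1-1 mutation. The rescued strain, B6-F_resc (CC-5386), carries cehc1-1 and, per the study's design text, was rescued by transforming in a wild-type CEHC1 gene. Whether the transformed cells were B6-F itself is not stated. Strain B6 (CC-4507), with wild-type CEHC1, is called the wild type. Each strain gave 3 libraries of polyA RNA from 3 cultures, grown with aeration in acetate-containing TAP medium in cycles with 14 h light and 10 h dark, and collected 6 h after the lights came on. The labels do not give the lesion, the promoter of the added gene or where it inserted, and each genotype is represented by 1 strain.

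The authors' values are FPKM, the fragments of a gene per length of its transcript and per sequenced fragment, so levels can be compared between genes of different length. The depth of each library is unknown. CEHC1 itself (Cre01.g005900_4532) had 17.2 ± 0.967 FPKM in the mutant, 26.5 ± 1.31 in the rescued strain and 8.64 ± 1.41 in the wild type (SD, n = 3 each), so its RNA was not lower in the mutant, where the difference from the wild type was 0.93 (SE 0.10, adjusted p 3.2e-05), and does not check that label. FPKM over all genes summed to between 592929 and 645234 in mutant libraries, between 888153 and 1002223 in rescued libraries and between 970073 and 1108532 in wild-type libraries. Markers of the alga's own chloroplast were abundant in every strain, with RBCS2 at 14396 ± 1004 FPKM in the mutant, 27953 ± 861 in the rescued strain and 28476 ± 3504 in the wild type (SD, n = 3 each). All 8 green algal markers were tested. In mutant against wild type 4 of them were lower with an adjusted p under 0.05 and none higher, near the 40.5% of all genes tested that were lower, and in rescued strain against wild type the 4 tubulin genes were lower, against 21.8% of all genes. Of 7 gamete and zygote markers, 6 had a mean under 1 FPKM. Their summed level was 21.2 to 22.2 FPKM in mutant libraries, 37.4 to 44.7 in rescued libraries and 22.6 to 26.0 in wild-type libraries, and GSP1 made up most of it. MID1, a gene of the minus mating type, was listed at 0 in every mutant and wild-type library and had 2.89, 2.46 and 3.29 FPKM in the rescued libraries. FUS1, a gene of the plus mating type, was listed at 0 in every rescued library and had 0.323, 0.272 and 0.229 FPKM in mutant libraries and 0.132, 0.286 and 0.183 in wild-type libraries. MID1 and FUS1 RNA of the rescued strain thus differed from that of B6-F, so that rescued strain against mutant may compare more than the added gene. Among the gamete and zygote markers, GSP1 was highest in the rescued strain, at 39.2 ± 4.01 FPKM. It had 20.1 ± 0.639 in the mutant and 23.3 ± 1.95 in the wild type, and GSM1 was under 1 FPKM in each strain. The descent of the rescued strain was not tested, nor was the part of such differences in each result on it.

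The subunit genes were among the most abundant transcripts of the cell. Strain means ran from 94.4 ± 4.83 FPKM for PSBP3 to 10624 ± 393 for PSBR1 in the mutant, from 217 ± 12.7 to 21458 ± 1638 in the rescued strain, and from 198 ± 15 to 22736 ± 606 in the wild type (SD, n = 3 each). All 25 had a mean of at least 1 FPKM and were tested among 11360 genes, and 22 of them lay among the 166 genes with a mean of 1000 FPKM or more. Replicates agreed closely, and the coefficient of variation within a strain had a median over the genes of 6.27% in the mutant, 7.06% in the rescued strain and 7.42% in the wild type. The order of the 25 levels was nearly the same in all strains, with a Spearman correlation across genes of 0.988 between mutant and wild type and 0.992 between rescued strain and wild type. These genes share their libraries and are not independent replicates.

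**Figure D1:**
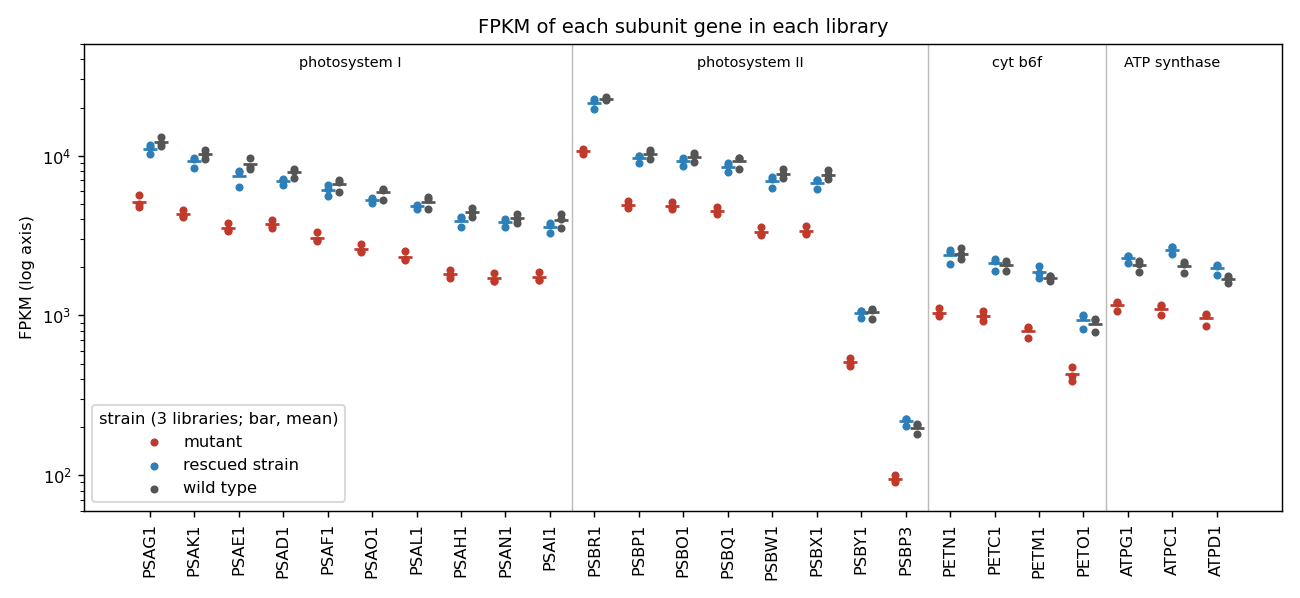
FPKM on a log axis for each of the 25 genes in every library, by complex, with the mutant on the left of each trio, then the rescued strain, then the wild type. Points are libraries and bars are means of 3. For every gene the 3 mutant points lie below all points of the other strains.

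On the deposited scale the mutant had less RNA than the wild type for every one of the 25 genes. Strain means in the mutant were between 40.0% (PSAE1) and 57.0% (ATPD1) of the wild-type means. With limma on log2(FPKM + 1), all 25 had an adjusted p under 0.05 and lower values, and among all genes tested 40.5% did. When a log2 difference of at least 1 was also required, 22 were called lower, against 4.8% of all genes tested. They were all 10 of photosystem I, all 8 of photosystem II and all 4 of cytochrome b6f, while the 3 ATP synthase genes fell by less than 1. The median difference of the 25 was -1.11, and that of all genes tested was -0.13. In each of the 25 the highest mutant library lay below the lowest wild-type library, which was so for 43.5% of all genes tested. In bulk RNA, fewer cells of a type and less RNA per cell cannot be told apart.

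In the rescued strain all 25 genes were higher than in the mutant with an adjusted p under 0.05, as were 33.1% of all genes tested, and 19 were called, against 5.41%. The median difference was 1.05, beside 0.05 for all genes tested. Other abundant genes were higher as well. Apart from the 25, the 144 genes with a mean of 1000 FPKM or more had a median of 0.51, and 142 of them lay above 0. In each of the 25 the lowest rescued library lay above the highest mutant library, as in 37.2% of all genes tested. This comparison uses the same mutant libraries as the first one.

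**Figure D2:**
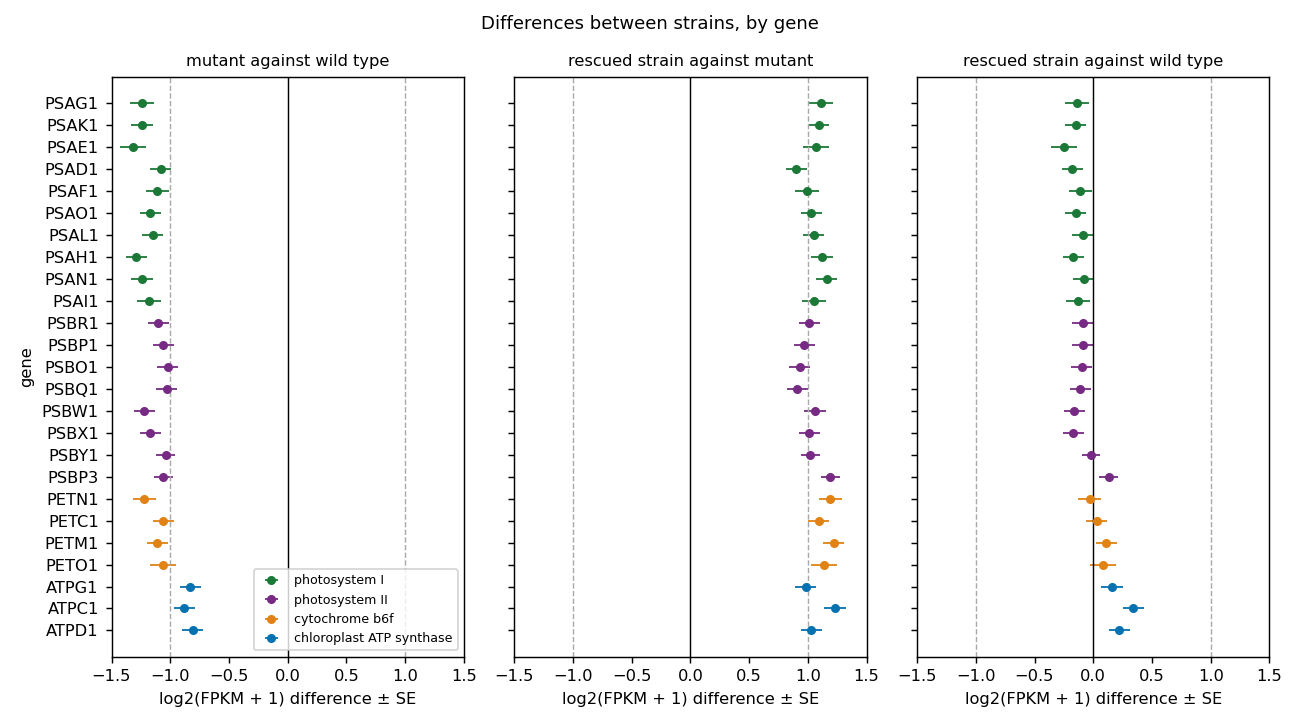
Difference in log2(FPKM + 1) for each gene, with its standard error from limma, for mutant against wild type, rescued strain against mutant and rescued strain against wild type. Dashed lines mark a difference of 1 in either direction. The 3 ATP synthase genes have the smallest differences in the left panel, -0.88 to -0.81, and lie above 0 in the right panel.

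Photosystem I was represented by 10 genes. PSAD1 (Cre05.g238332_4532) and PSAE1 (Cre10.g420350_4532) encode the stromal subunits at which ferredoxin docks. PSAD1 had 3639, 3549.6 and 3938 FPKM in mutant replicates 1 to 3, 6521, 7023 and 7168 in rescued replicates, and 8060.4, 7195 and 8303 in wild-type replicates. PSAE1 had 3374, 3417 and 3769.8 FPKM in mutant libraries, 6379.7, 8022 and 7890.1 in rescued libraries and 8272, 8519.7 and 9624 in wild-type libraries. In both genes the mutant libraries formed a separate low group. The mutant difference was -1.08 (SE 0.09, adjusted p 5.3e-06) for PSAD1, the smallest of photosystem I, and -1.32 (SE 0.11, adjusted p 5.8e-06) for PSAE1, the largest of all 25. The ratio of PSAE1 to PSAD1, which a common factor for a whole library does not move, was 0.927, 0.963 and 0.957 in mutant libraries, 0.978, 1.142 and 1.101 in rescued libraries and 1.026, 1.184 and 1.159 in wild-type libraries. All mutant ratios lay below all wild-type ratios, and the rescued ratios overlapped those of the wild type. As the pair holds the largest and the smallest mutant difference of photosystem I, the lower mutant ratio follows from its choice. PSAE1 was the gene furthest below the wild type in the rescued strain, with a difference of -0.25 (SE 0.11, adjusted p 0.091), and its rescued libraries lay just under all wild-type ones. PSAD1 had -0.18 (SE 0.09, adjusted p 0.12), and an adjusted p of 0.043 without wild-type replicate 2.

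PSAF1 (Cre09.g412100_4532) and PSAN1 (Cre02.g082500_4532) encode subunits of the lumenal side, where plastocyanin and cytochrome c6 bind. PSAF1 had 2959, 2905 and 3339 FPKM in mutant libraries, 5628, 6174 and 6517 in rescued libraries and 6875, 5884 and 7091 in wild-type libraries. PSAN1 had 1648, 1646 and 1846 FPKM in mutant libraries, 3551, 3914 and 3989 in rescued libraries and 4027, 3801 and 4301 in wild-type libraries. Neither gene overlapped between mutant and wild type, and both overlapped between rescued strain and wild type. The mutant differences were -1.11 (SE 0.10, adjusted p 9.9e-06) for PSAF1 and -1.24 (SE 0.09, adjusted p 2.6e-06) for PSAN1. Between rescued strain and mutant they were 0.99 (SE 0.10, adjusted p 1.8e-05) and 1.16 (SE 0.09, adjusted p 2e-06), so that PSAF1 missed the minimum difference for a call there.

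PSAG1 (Cre12.g560950_4532) and PSAK1 (Cre17.g724300_4532) encode membrane subunits next to the light-harvesting antenna, and were the most abundant of photosystem I. PSAG1 had 5006, 4801 and 5643 FPKM in mutant libraries, 10211, 11384 and 11639.8 in rescued libraries and 12000.3, 11429 and 13122 in wild-type libraries. PSAK1 had 4176, 4158 and 4599 FPKM in mutant libraries, 8396, 9582 and 9669 in rescued libraries and 10246, 9576 and 10842 in wild-type libraries. The mutant means stood at 42.3% and 42.2% of the wild-type means. The mutant differences were -1.24 (SE 0.10, adjusted p 4.5e-06) and -1.24 (SE 0.09, adjusted p 3.5e-06).

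PSAH1 (Cre07.g330250_4532), PSAI1 (Cre03.g165100_4532), PSAL1 (Cre12.g486300_4532) and PSAO1 (Cre07.g334550_4532) encode small subunits on the opposite flank, where mobile light-harvesting complexes attach during state transitions. PSAH1 had 1780.3, 1712 and 1929 FPKM in mutant libraries, 3555, 4087 and 4139.6 in rescued libraries and 4430.5, 4136 and 4723 in wild-type libraries. PSAI1 had 1663, 1665 and 1869 FPKM in mutant libraries, 3289, 3672 and 3811 in rescued libraries and 4029.9, 3519 and 4287 in wild-type libraries. In both genes the mutant libraries again did not overlap with the others. PSAL1 had 2239, 2214 and 2527 FPKM in mutant libraries, 4659, 4871 and 4933 in rescued libraries and 5340.3, 4616 and 5527 in wild-type libraries. PSAO1 had 2542, 2484 and 2783 FPKM in mutant libraries, 5090.1, 5380.2 and 5448 in rescued libraries and 6116, 5303 and 6228 in wild-type libraries. Both followed the same pattern. The mutant difference was -1.29 (SE 0.09, adjusted p 2.7e-06) for PSAH1, the second largest of the 25, and -1.18 (SE 0.10, adjusted p 6.2e-06) for PSAI1. It was -1.15 (SE 0.09, adjusted p 5.1e-06) for PSAL1 and -1.17 (SE 0.09, adjusted p 3.8e-06) for PSAO1. Over the 10 genes of photosystem I the median mutant difference was -1.21 and the range -1.32 to -1.08. Against the wild type, all 10 were below 0 in the rescued strain, from -0.25 to -0.08, and none had an adjusted p under 0.05.

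Among the 8 photosystem II genes, PSBO1, PSBP1 and PSBQ1 encode the extrinsic proteins that shield the oxygen-evolving manganese cluster in the lumen. PSBO1 (Cre09.g396213_4532) had 4781, 4619 and 5147 FPKM in mutant libraries, 8628, 9359.9 and 9646 in rescued libraries and 10116, 9078 and 10369.6 in wild-type libraries. PSBP1 (Cre12.g550850_4532) had 4887, 4676 and 5208 FPKM in mutant libraries, 8949, 9964 and 9985 in rescued libraries and 10476, 9538 and 10826 in wild-type libraries. PSBQ1 (Cre08.g372450_4532) had 4532, 4308 and 4757 FPKM in mutant libraries, 7887, 8725 and 9000.3 in rescued libraries and 9694, 8309 and 9726 in wild-type libraries. The mutant means were 49.2%, 47.9% and 49% of the wild-type means, with differences of -1.02 (SE 0.09, adjusted p 7.6e-06), -1.06 (SE 0.09, adjusted p 6.3e-06) and -1.03 (SE 0.09, adjusted p 1e-05). The ratio of PSBQ1 to PSBO1 averaged 0.935 ± 0.012 in the mutant, 0.926 ± 0.011 in the rescued strain and 0.937 ± 0.022 in the wild type (SD, n = 3 each), and these ranges overlapped. The ratio of PSBP1 to PSBO1 was 1.022, 1.012 and 1.012 in mutant libraries, 1.037, 1.065 and 1.035 in rescued libraries and 1.036, 1.051 and 1.044 in wild-type libraries, so the mutant ratios were lowest by a small margin without overlap.

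PSBR1 (Cre06.g261000_4532), which in plants helps to bind the extrinsic proteins, was the most abundant of the 25 genes in each strain. It had 10738, 10186 and 10946 FPKM in mutant libraries, 19594, 22671 and 22108 in rescued libraries and 22701, 22149 and 23359 in wild-type libraries, and a mutant difference of -1.10 (SE 0.09, adjusted p 5e-06). PSBW1 (Cre11.g801318_4532), PSBX1 (Cre02.g082750_4532) and PSBY1 (Cre10.g452100_4532) encode small membrane-spanning subunits. PSBW1 had 3225, 3176 and 3558 FPKM in mutant libraries, 6267, 7154 and 7332 in rescued libraries and 7689, 7214 and 8242 in wild-type libraries. PSBX1 had 3263, 3246 and 3602 FPKM in mutant libraries, 6222, 7047 and 7051 in rescued libraries and 7556, 7096 and 8147 in wild-type libraries. PSBY1 had 502, 479 and 545 FPKM in mutant libraries, 969, 1061 and 1064 in rescued libraries and 1104, 952 and 1084 in wild-type libraries. PSBY1 was far less abundant than its neighbours in the complex, and all 3 were lower in the mutant without overlap. Their mutant differences were -1.22 (SE 0.09, adjusted p 4.2e-06), -1.17 (SE 0.09, adjusted p 4.3e-06) and -1.04 (SE 0.08, adjusted p 5.7e-06). The ratio of PSBW1 to PSBO1 was 0.675, 0.688 and 0.691 in mutant libraries, 0.726, 0.764 and 0.760 in rescued libraries and 0.760, 0.795 and 0.795 in wild-type libraries. The mutant ratios were thus below all others. PSBW1 had the largest and PSBO1 the smallest mutant difference of photosystem II, so this direction follows from the choice of pair. PSBP3 (Cre12.g509050_4532), named as a member of the PSBP family, was the least abundant of the 25. It had 93.5, 90.2 and 99.7 FPKM in mutant libraries, 203, 225 and 224 in rescued libraries and 209, 181 and 205 in wild-type libraries, and a mutant difference of -1.06 (SE 0.08, adjusted p 3.7e-06). Over the 8 genes the median mutant difference was -1.06 and the range -1.22 to -1.02. As deposited, PSBP3 alone among them lay above 0 in rescued strain against wild type, at 0.13 (SE 0.08, adjusted p 0.22), which did not pass the test. With equal sums of FPKM it passed (0.25, adjusted p 0.0042). Of the PSB genes that the rule left out, PSB27 and PSB28 had mutant differences of -1.10 and -1.04. PSB33 (-0.85, SE 0.10, adjusted p 3.5e-05) and PSB34 (-0.43, SE 0.10, adjusted p 0.0033) were lower but short of the minimum for a call.

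Of cytochrome b6f, PETC1 (Cre11.g467689_4532) encodes the Rieske iron-sulfur protein, PETM1 (Cre12.g546150_4532) and PETN1 (Cre16.g650100_4532) small membrane subunits, and PETO1 (Cre12.g558900_4532) a loosely bound phosphoprotein. PETC1 had 986, 928 and 1070.4 FPKM in mutant libraries, 1899, 2256 and 2199 in rescued libraries and 2183, 1907 and 2139.6 in wild-type libraries. PETN1 had 1015, 997 and 1114 FPKM in mutant libraries, 2089, 2574 and 2495 in rescued libraries and 2439, 2240.1 and 2634 in wild-type libraries. The mutant libraries of both lay near 1000 FPKM and below all others. PETM1 had 834, 723 and 842 FPKM in mutant libraries, 1717, 2037 and 1845 in rescued libraries and 1759.8, 1642 and 1769.5 in wild-type libraries. PETO1 had 417, 387 and 477 FPKM in mutant libraries, 826, 1005 and 992 in rescued libraries and 945, 789.9 and 933 in wild-type libraries, with the widest spread between mutant replicates of the 25 genes relative to its mean. The mutant differences were -1.06 (SE 0.09, adjusted p 8.8e-06) for PETC1, -1.22 (SE 0.10, adjusted p 5.7e-06) for PETN1, -1.11 (SE 0.09, adjusted p 5.6e-06) for PETM1 and -1.06 (SE 0.11, adjusted p 2.1e-05) for PETO1. All 4 were also called in rescued strain against mutant, from 1.09 for PETC1 to 1.22 for PETM1. Against the wild type none passed the test in the rescued strain as deposited, with differences from -0.03 for PETN1 to 0.11 for PETM1, and adjusted p-values of 0.35 to 0.84. With equal sums of FPKM, PETC1 (0.15, adjusted p 0.028), PETM1 (0.23, adjusted p 0.0099) and PETO1 (0.20, adjusted p 0.027) passed as higher. PETO1 also passed after quantile normalization (0.21, adjusted p 0.0094). The ratio of PETN1 to PETC1 was 1.030, 1.075 and 1.040 in the mutant, below the 1.117, 1.175 and 1.231 of the wild type, and 1.100, 1.141 and 1.135 in the rescued strain. PETN1 had the largest mutant difference of the complex and PETC1, with PETO1, the smallest, so this direction follows from the choice of pair.

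As deposited, the ATP synthase genes fell least in the mutant and stood highest, relative to the wild type, in the rescued strain. After quantile normalization photosystem II fell less in the mutant, with a median of -0.12 beside -0.20 for the ATP synthase. ATPC1 (Cre06.g259900_4532) encodes the rotating gamma subunit, ATPD1 (Cre11.g467569_4532) the delta subunit and ATPG1 (Cre11.g481450_4532) a subunit of the peripheral stalk. ATPC1 had 1157, 1004 and 1153 FPKM in mutant replicates 1 to 3, 2416, 2667 and 2671 in rescued replicates, and 2167, 1853 and 2101 in wild-type replicates. Mutant libraries were lowest and rescued libraries highest, with no overlap between any 2 strains. ATPD1 had 1018, 860.3 and 1008 FPKM in mutant libraries, 1784, 2082 and 2044 in rescued libraries and 1753, 1596 and 1717 in wild-type libraries, in the same order without overlap. ATPG1 had 1208, 1064 and 1199 FPKM in mutant libraries, 2132, 2370.4 and 2365 in rescued libraries and 2180.5, 1872 and 2112 in wild-type libraries, and here rescued and wild-type libraries overlapped. The mutant differences were -0.88 (SE 0.09, adjusted p 1.9e-05) for ATPC1, -0.81 (SE 0.09, adjusted p 3.6e-05) for ATPD1 and -0.83 (SE 0.09, adjusted p 2.5e-05) for ATPG1, all short of the minimum for a call. Between rescued strain and mutant they were 1.23 (SE 0.09, adjusted p 2.1e-06), 1.03 (SE 0.09, adjusted p 7.9e-06) and 0.98 (SE 0.09, adjusted p 8e-06), and ATPC1 had the largest of the 25.

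As deposited, ATPC1 was the one gene of the 25 with an adjusted p under 0.05 in rescued strain against wild type, at 0.34 (SE 0.09, adjusted p 0.014). Among all genes tested, 18.5% were higher and 21.8% lower at that threshold. ATPD1 differed by 0.22 (SE 0.09, adjusted p 0.085) and ATPG1 by 0.16 (SE 0.09, adjusted p 0.19). ATPD1 passed after rescaling by median ratios (0.28, adjusted p 0.037), with equal sums of FPKM (0.34, adjusted p 0.0014), after quantile normalization (0.25, adjusted p 0.0078) and without rescued replicate 1 (0.29, adjusted p 0.038). ATPG1 passed with equal sums (0.28, adjusted p 0.002) and after quantile normalization (0.21, adjusted p 0.0084). ATPC1 could also be set against the other subunits of its complex within each library. The ratio of ATPC1 to ATPG1 was 0.957, 0.944 and 0.961 in mutant libraries, 1.133, 1.125 and 1.130 in rescued libraries and 0.994, 0.989 and 0.995 in wild-type libraries. The ratio of ATPC1 to ATPD1 was 1.136, 1.167 and 1.143 in mutant libraries, 1.354, 1.281 and 1.307 in rescued libraries and 1.236, 1.160 and 1.224 in wild-type libraries. By both ratios the rescued libraries were the highest and did not overlap with the others. ATPC1 was chosen with the largest difference of its complex in the rescued strain, so this direction follows from the choice.

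For the 25 genes as a set, the rescued strain was close to the wild type, with a median difference of -0.09 beside -0.03 for all genes tested. No gene was called with limma, against 0.634% of all genes called higher and 1.67% called lower. At an unadjusted p under 0.05 there were 1 lower and 2 higher, while 21.8% and 18.5% of all genes tested were so even at an adjusted p under 0.05. In 20 genes the libraries of the 2 strains overlapped. PSAD1, PSAE1 and PSBX1 were lower in every rescued library, which was so for 26.3% of all genes tested, and ATPC1 and ATPD1 were higher in every rescued library, as were 22.2%. By complex the median difference was -0.14 for photosystem I, -0.10 for photosystem II, 0.05 for cytochrome b6f and 0.22 for the ATP synthase.

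The size of the mutant difference depended on how libraries were scaled. Rescaling by median ratios, which set the median of all genes tested at -0.01 in place of -0.13, gave a median of -0.96 for the 25, and all 25 were lower with an adjusted p under 0.05, as were 31.9% of all genes. With that scale 11 were called lower, against 2.97%, 8 of them in photosystem I. When each library was scaled to the same sum of FPKM, as TPM are, the median of all genes became 0.49 and that of the 25 -0.35. There 23 genes were lower with an adjusted p under 0.05, against 5.99% of all genes, and none reached a difference of -1, against 0.695%. ATPD1 (-0.06, adjusted p 0.35) and ATPG1 (-0.07, adjusted p 0.19) did not pass. Quantile normalization gives all libraries the same distribution of values, so genes that hold the same ranks at the top get the same values by construction. Under it the median of the 25 was -0.27, 20 were lower with an adjusted p under 0.05, against 32.9%, and none was called, against 2.07%. PSAD1, PSBO1, PSBP1 and PSBQ1 lay between -0.07 and -0.02 and did not pass, and PSBR1, the most abundant, stood at 0.03 (adjusted p 0.36). PSBR1 under quantile normalization was thus the one case among the 25 genes and 4 scales with a mutant difference above 0. Between rescued strain and mutant, the median of the 25 was 0.97 after median ratios, 0.41 with equal sums and 0.35 after quantile normalization, beside -0.02, -0.48 and 0.03 for all genes. All 25 were higher with an adjusted p under 0.05 after median ratios, against 28.1% of all genes, and with equal sums, against 8.49%, and 20 were after quantile normalization, against 30.6%. There 10, 0 and 0 were called higher on these 3 scales, against 4.52%, 1.61% and 3.98% of all genes. Compared with the wild type, 2 genes were higher in the rescued strain with an adjusted p under 0.05 after median ratios, 7 with equal sums and 4 after quantile normalization, and none was lower. Among all genes 21.8%, 21.8% and 19.2% were higher.

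**Figure D3:**
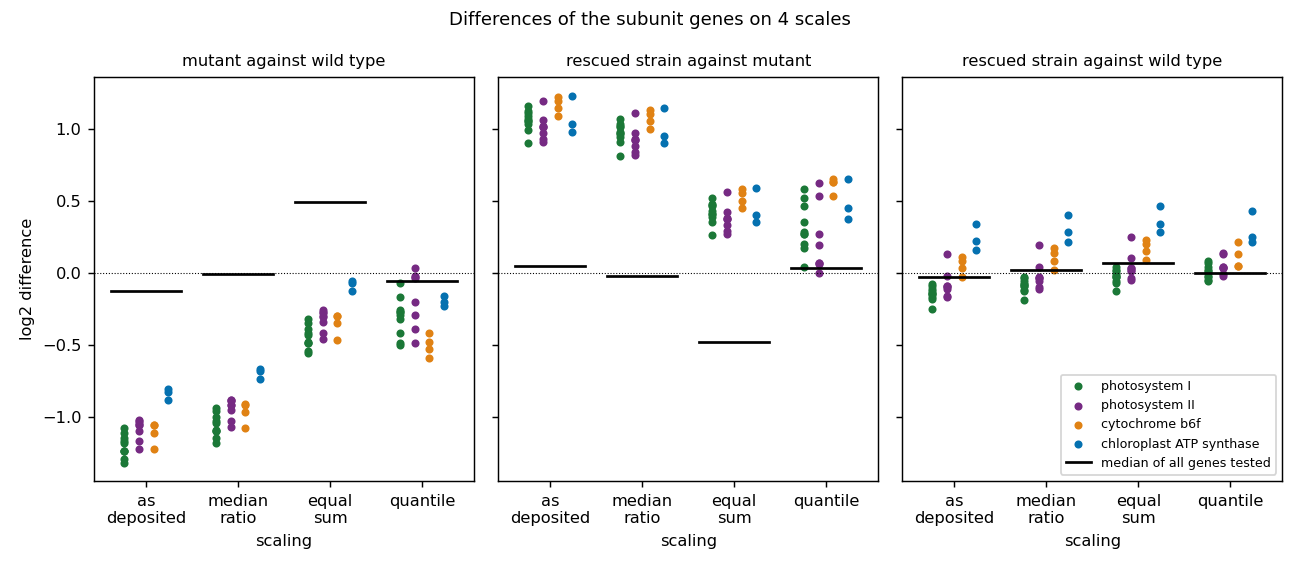
Log2 difference of each gene on 4 scales, the deposited FPKM and 3 rescalings, for the 3 comparisons. Points are genes coloured by complex, and the black bar is the median of all 11360 genes tested on that scale. In the left panel the genes lie below the bar as deposited, after median ratios and with equal sums, and on those 3 scales the ATP synthase genes are the highest.

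The 25 genes made up a smaller part of all FPKM in the mutant, with 11%, 11% and 11.3% of the sum, than in the rescued strain, with 14.5%, 14.6% and 14.6%, or the wild type, with 14.4%, 14.5% and 14.4%. Their summed FPKM averaged 68650 ± 3926 in the mutant, 140131 ± 9771 in the rescued strain and 150726 ± 9614 in the wild type (SD, n = 3 each). All remaining genes together summed to 548680 ± 22425 in the mutant, 821662 ± 54106 in the rescued strain and 893711 ± 60187 in the wild type, so that the sum of the others was lower in the mutant as well.

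On the deposited scale abundant genes in general were lower in the mutant. Apart from the 25, 144 genes had a mean of 1000 FPKM or more, all 144 had a mutant difference below 0, and their median was -0.67 (quartiles -0.97 and -0.54). Of those 144, 32 were called lower, or 22.2%. Of the 22 subunit genes in that class, 19 were called lower and the median was -1.13. The 3 that were not are the ATP synthase genes, whose values of -0.88 to -0.81 lay within the quartiles of the 144. Between 100 and 1000 FPKM the median of the 501 other genes was -0.72 with 25.5% called lower, while PSBP3, PSBY1 and PETO1 stood at -1.06, -1.04 and -1.06. Among the 7607 genes of 1 to 10 FPKM the median was 0.04. With equal sums the medians of the others were 0.09 at 1000 FPKM or more and 0.63 at 1 to 10 FPKM, and after quantile normalization 0.04 and -0.05.

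**Figure D4:**
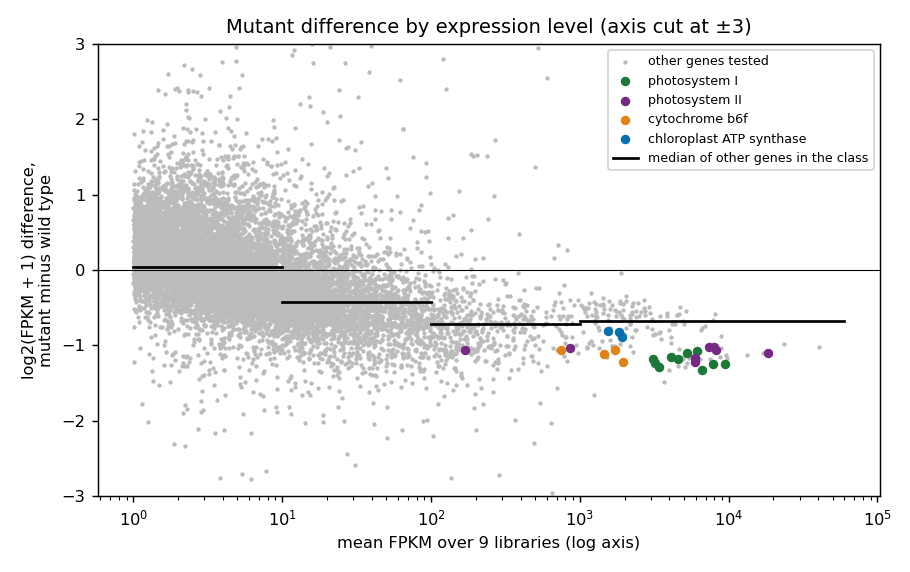
Difference in log2(FPKM + 1) of mutant against wild type for all genes tested, by their mean FPKM over 9 libraries on a log axis, with the 25 subunit genes coloured by complex. Black bars are the medians of the other genes in each class of level, from 0.04 at 1 to 10 FPKM to -0.67 at 1000 FPKM or more. Differences beyond 3 in either direction are not drawn.

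Differences between complexes within one library hardly move when the whole library is multiplied by a factor. The median log2(FPKM + 1) of the ATP synthase genes, minus that of the photosystem I genes, was -1.24, -1.42 and -1.40 in mutant libraries, -1.33, -1.28 and -1.33 in rescued libraries and -1.58, -1.59 and -1.66 in wild-type libraries. The ATP synthase was thus higher relative to photosystem I in every mutant and every rescued library than in any wild-type library, and mutant and rescued libraries overlapped. Quantile normalization, which is not a common factor per library, kept the rescued libraries apart (-1.32 to -1.23) but let the mutant (-1.60 to -1.38) overlap with the wild type (-1.57 to -1.46). Relative to cytochrome b6f, the ATP synthase stood at 0.35, 0.29 and 0.28 in mutant libraries, 0.24, 0.15 and 0.23 in rescued libraries and 0.14, 0.07 and 0.11 in wild-type libraries. The 3 strains did not overlap, with the rescued strain between the others, and they did not overlap after quantile normalization either. Photosystem II minus photosystem I was 0.49, 0.48 and 0.44 in mutant libraries, 0.39, 0.45 and 0.45 in rescued libraries and 0.41, 0.47 and 0.43 in wild-type libraries, which overlapped throughout on the deposited scale. After quantile normalization the mutant (0.48 to 0.52) lay above the rescued strain (0.38 to 0.44) and the wild type (0.38 to 0.43). Cytochrome b6f minus photosystem I averaged -1.66 ± 0.06 in the mutant, -1.52 ± 0.08 in the rescued strain and -1.72 ± 0.06 in the wild type (SD, n = 3 each). The rescued libraries, from -1.57 to -1.43, were above all mutant libraries, from -1.71 to -1.60, and all wild-type libraries, from -1.77 to -1.66, and mutant and wild type overlapped. Quantile normalization changed this, with the mutant (-1.94 to -1.83) below all other libraries and the rescued strain (-1.57 to -1.42) overlapping with the wild type (-1.66 to -1.53).

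**Figure D5:**
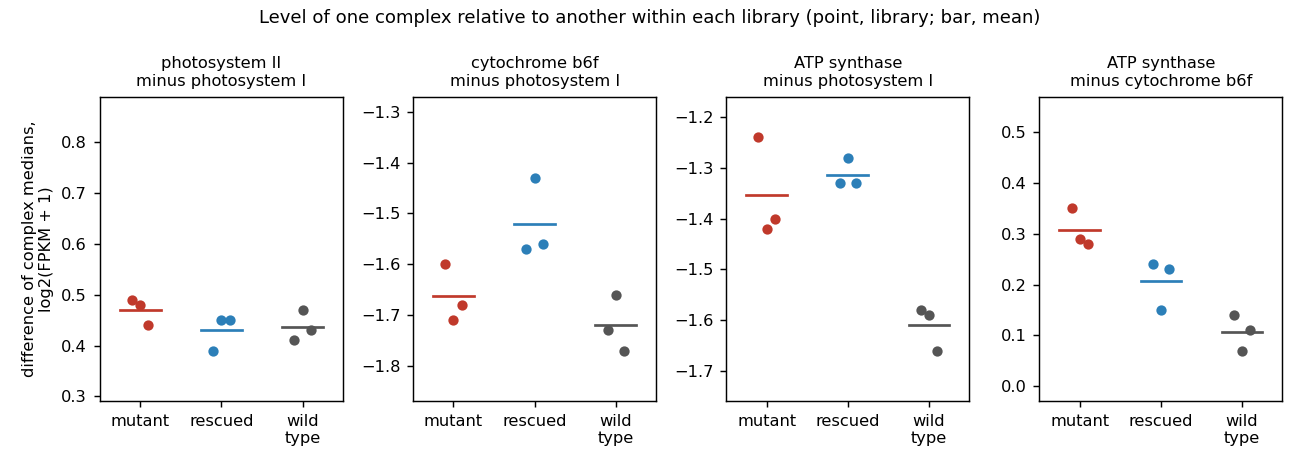
Difference between the median log2(FPKM + 1) of 2 complexes within each library, for 4 pairs of complexes, with axes of equal length. Points are libraries and bars are means of 3. In the third panel the mutant libraries, at -1.42 to -1.24, and the rescued libraries, at -1.33 to -1.28, lie above the wild-type libraries, at -1.66 to -1.58.

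The 25 genes varied less among themselves than genes at large, most of which were far less abundant. The SD of their mutant differences was 0.13, against 0.66 for all genes tested, and for rescued strain against wild type it was 0.14, against 0.40. The 144 other genes of 1000 FPKM or more had quartiles of -0.97 and -0.54 in mutant against wild type, beside -1.22 and -1.06 for the 25. In rescued strain against wild type these were -0.20 and -0.04, beside -0.15 and 0.03. There the smaller spread was not particular to the 25. The identifiers of the 25 place them on 12 chromosomes, 6 on chromosome 12 and 4 on chromosome 11. In the gene order of assembly Chlamydomonas_reinhardtii_v5.5, in which 24 of the 25 were found, the closest pair was PSAN1 and PSBX1 on chromosome 2, with 5 genes between them, and no pair were direct neighbours.

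Partners in electron transfer were followed as a list of 16 symbols, of which 15 were matched and 13 tested, PSBS1 and PSBS2 being under 1 FPKM. Of the 13, 10 were lower in the mutant and 1 higher with an adjusted p under 0.05, against 40.5% and 25.8% of all genes tested, and the median was -0.81, beside -0.13 for all genes. Genes outside the 25 had medians of -0.42 at 10 to 100 FPKM, -0.72 at 100 to 1000 and -0.67 at 1000 or more. The abundant partners thus lie in classes that were lower in general. With equal sums 5 of the 13 were lower and 5 higher, against 5.99% and 69.9%. PCY1, plastocyanin, had 7794 ± 520 FPKM in the mutant, 15032 ± 997 in the rescued strain and 17058 ± 1593 in the wild type (SD, n = 3 each), a mutant difference of -1.13 (SE 0.10, adjusted p 8.4e-06). CYC6, cytochrome c6, had 567 ± 85.1 FPKM in the mutant, 0.174 ± 0.056 in the rescued strain and 0.190 ± 0.106 in the wild type. It was the one member of the list that was higher in the mutant with an adjusted p under 0.05 as deposited. Plastocyanin mRNA in the mutant still exceeded that of CYC6. FDX1, the main ferredoxin, differed by -1.16 and FNR1, the ferredoxin-NADP reductase, by -0.92. In rescued strain against wild type 1 of the 13 was higher and 2 were lower with an adjusted p under 0.05, against 18.5% and 21.8% of all genes tested. FNR1 was higher by 0.30 (SE 0.10, adjusted p 0.031), and the plastid terminal oxidases PTOX1 (-0.37, adjusted p 0.036) and PTOX2 (-0.31, adjusted p 0.0075) were lower. CAS1 and ANR1, which take part in cyclic electron flow, were also called lower in the mutant, at -1.21 and -1.04. With PCY1 and FDX1 this made 4 of the 13 called lower as deposited, against 4.8% of all genes tested. With equal sums and after quantile normalization 0 were called lower, against 0.695% and 2.07%. STT7, the kinase of state transitions, had -0.12 (adjusted p 0.20).

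Factors that assemble the complexes were taken as a list of 34 symbols, of which 20 were matched and 19 tested. With an adjusted p under 0.05, 17 were lower in the mutant and 1 higher, against 40.5% and 25.8% of all genes tested, with a median of -0.75. Genes outside the 25 had medians of 0.04 at 1 to 10 FPKM, -0.42 at 10 to 100 and -0.72 at 100 to 1000. With equal sums 5 of the 19 were lower and 5 higher, against 5.99% and 69.9%, and their median was 0.01. As deposited 5 were called lower, against 4.8% of all genes tested. With equal sums and after quantile normalization 0 were, against 0.695% and 2.07%. Those called lower as deposited were PSB27 (-1.10) and PSB28 (-1.04), which bind photosystem II during its assembly and repair, TEF30 (-1.05), which acts in photosystem II repair, Y3IP1 (-1.24), a photosystem I assembly factor, and CCB1 (-1.23), which serves heme attachment to cytochrome b6. CPLD50 (0.53) was the higher one. In rescued strain against mutant 18 were higher and 1 lower as deposited, against 33.1% and 25% of all genes tested, with a median of 0.84. With equal sums 10 were higher and 1 lower, against 8.49% and 68.9%, with a median of 0.24. Against the wild type the rescued strain was higher in 7 of the 19 and lower in none as deposited, against 18.5% and 21.8% of all genes tested, with a median of 0.19. They were HCF173 (0.75), known in plants for psbA translation, LPA1 (0.36), known in plants for photosystem II assembly, and 5 genes that serve the attachment of heme to cytochrome b6 and c-type cytochromes, namely CCS1 (0.56), CCB3 (0.50), CCB1 (0.44), CCB4 (0.44) and CCS5 (0.34).

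Nuclear factors for the expression of chloroplast genes were a list of 38 symbols, of which 32 were matched and 25 tested. The symbol MDH1 is also used for malate dehydrogenase, and its level of 1012 ± 99.5 FPKM in the wild type was far above that of the rest of the list. In the mutant 13 were lower and 4 higher with an adjusted p under 0.05, against 40.5% and 25.8% of all genes tested, with a median of -0.24. MDH1 (-0.60) is counted among the lower ones. With equal sums 2 were lower and 17 higher, against 5.99% and 69.9%, and the median was 0.37. As deposited 2 of the 25 were called lower, not far from the 4.8% of all genes tested. With equal sums and after quantile normalization 0 were, against 0.695% and 2.07%. Those called as deposited were TAB2 (-1.15), needed for psaB translation, and DLA2 (-1.22), a subunit of chloroplast pyruvate dehydrogenase that binds psbA RNA. TBA1, known for its part in psbA translation, was higher in the mutant by 0.42 (adjusted p 0.0008). As deposited it was the only one of the list lower in rescued strain against mutant with an adjusted p under 0.05. There 18 were higher, against 33.1% of all genes tested. With equal sums 7 were lower and 7 higher, against 68.9% and 8.49%, with a median of 0.01. After quantile normalization 3 were lower and 20 higher, against 27.8% and 30.6%. Against the wild type the rescued strain was higher in 13 and lower in 1, against 18.5% and 21.8% of all genes tested, with a median of 0.30 as deposited and 0.35 after median ratios. The lower one was MDH1 (-0.28, adjusted p 0.029), whose symbol is ambiguous. The higher ones included MBC1 (0.89), TAA1 (0.88), which serves psaA translation, TBC2 (0.72), which serves psbC translation, and TDA1 (0.53, adjusted p 0.0014), which serves translation of the ATP synthase subunit gene atpA. Most of these factors were rare transcripts, with TDA1 at 1.89 ± 0.051 FPKM in the mutant, 3.96 ± 0.417 in the rescued strain and 2.43 ± 0.277 in the wild type (SD, n = 3 each).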

How the data were processed

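Expression was measured by RNA-seq of polyA RNA, read as paired ends of 125 bases, in 9 libraries. The deposited table gives FPKM per gene and library, and a separate value per strain that lay within 0.137% of the mean of its 3 replicates in all 75 member values. STAR 2.7.10b and Cuffdiff 2.0.2 are named per the submitters' processing notes, without their roles or settings. How libraries were normalized to each other, the genome build the reads were aligned to and the read numbers are unstated (not given in the sources used here), so no counting error could be computed. The gene identifiers in the deposited table carry annotation version 6.1, and gene order alone was taken from RefSeq's gene table (assembly Chlamydomonas_reinhardtii_v5.5).

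The 11360 genes averaging 1 FPKM or more entered a fit on log2(FPKM + 1) with limma 3.58.1 in R 4.3.3, all 3 strains in 1 model, with a trend in the moderation and Benjamini-Hochberg adjustment over all genes tested. FPKM are not counts, so no count model was used. Fold changes on this scale understate those of low genes. A gene is called when its adjusted p is under 0.05 and its difference at least 1 in size. A fit was tested on simulated data before use. Python 3.11.15 with matplotlib 3.10.9 made the figures.

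Subunit genes and gene lists were chosen with earlier results of these data known, as were the ratios and pairs of complexes compared within libraries. The rule for genes named with all values took, per complex, the most abundant gene and the 2 with the largest mutant difference, plus every gene called in any comparison or moving against its complex, which came to all 25. Genes named from the lists were picked after their values were seen. Alternatives were other pseudocounts (0.1 and 5), other minimum levels (none and 5 FPKM), 3 rescalings, other moderation, pairs of strains alone, the replicate number as a block, and each library left out.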

Additional observations from a re-analysis of the deposited data

How the results depend on the processing

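Other pseudocounts, minimum levels, moderation and fits of 2 strains alone changed no call of the 25 genes. Rescaling did. In mutant against wild type 22 genes were called as deposited, 11 after median ratios, 0 with equal sums and 0 after quantile normalization, with medians of -0.96, -0.35 and -0.27 in place of -1.11. In rescued strain against mutant 19 were called as deposited, 10 after median ratios, 0 with equal sums and 0 after quantile normalization, and the last 2 gave medians of 0.41 and 0.35. In rescued strain against wild type 1 gene had an adjusted p under 0.05 as deposited, 2 after median ratios, 7 with equal sums and 4 after quantile normalization, and the last 2 gave medians of 0.02 and 0.04 in place of -0.09. The cause was not tested. A minimum difference of 0.5 gave 25 calls in mutant against wild type and 25 in rescued strain against mutant.

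Leaving out 1 library gave 18 to 22 calls in mutant against wild type, 14 to 22 in rescued strain against mutant, the lowest of both without mutant replicate 2, and 0 to 0 in rescued strain against wild type. Genes with an adjusted p under 0.05 there numbered 1 to 2, the added one being ATPD1 without rescued replicate 1 and PSAD1 without wild-type replicate 2. Medians ran from -1.15 to -1.07, 1.01 to 1.11 and -0.15 to -0.05. Deviations from strain means correlated at -0.13 to 0.16 between same-numbered libraries and at -0.26 to 0.19 between others. These ranges overlap and cannot decide whether the replicate numbers pair the samples. The main fit used no replicate block. With the replicate block, 2 genes had an adjusted p under 0.05 in rescued strain against wild type, ATPC1 and PSAE1 (-0.25, adjusted p 0.039), and no other call changed.

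Signs turned only near 0. In mutant against wild type PSBR1 was 0.03 after quantile normalization. In rescued strain against wild type, median ratios turned PSBY1 (0.04) and PETN1 (0.02). Equal sums turned PSAN1 (0.04), PSBR1 (0.03), PSBQ1 (0.01), PSBO1 (0.02), PSAF1 (0.01), PSBY1 (0.10), PSAL1 (0.02), PSBP1 (0.03) and PETN1 (0.09). Quantile normalization turned PSAN1 (0.08), PSAI1 (0.04), PSBR1 (0.03), PSAH1 (0.02), PSAO1 (0.01), PSBQ1 (0.04), PSBO1 (0.04), PSAF1 (0.00), PSBY1 (0.14), PSAL1 (0.07), PSBP1 (0.03) and PETN1 (0.05). None of these passed the test. Without 1 library, PSBY1 ranged from -0.09 to 0.02, PETC1 from -0.03 to 0.10, PETO1 from -0.00 to 0.17 and PETN1 from -0.09 to 0.06.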
